A study of Mus musculus with 3 samples.

Results

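Enzymes of glycolysis, lactate conversion and fructose use in normal mouse liver were examined through 9 genes. These were the aldolase Aldoa, the lactate dehydrogenases Ldha and Ldhb, the pyruvate kinase Pkm and the fructose kinase Khk. The others were the glycolytic enzymes Gapdh, Eno1, Pgk1 and Tpi1. All 9 genes were chosen by name, and their rows were taken by Ensembl gene identifier out of tables that held 12628 genes. The material was 3 liver RNA sequencing libraries of 1 group, referred to as replicates 1 to 3. All 3 are labelled wild type, healthy, male and C57BL/6, an inbred strain, with no treatment, transgene or age given. The series also concerns liver cancer, and tumours were not analysed here, so no contrast between groups was made and no test was run. Whether the replicates are separate animals is not given in the labels, and their spread may be technical.

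Glycolysis turns glucose into pyruvate through a chain of cytosolic enzymes, most of which exist as isozymes encoded by different genes or by different splice forms of a gene. Liver pyruvate kinase, for example, is made by hepatocytes in place of the muscle-type enzyme of most other tissues. Fructose enters through ketohexokinase (Khk), and this route bypasses the phosphofructokinase step.

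The authors gave an FPKM value, which scales fragments by length and by library size, for each transcript-structure event: a first exon, a last exon, an included or skipped exon, a spliced or retained intron. Each event carries the summed FPKM of the transcripts that have it. The deposited tables hold 71716, 74243 and 74236 events in replicates 1, 2 and 3 once identical rows are removed, and they list no value of 0 and no read count. Depth is therefore unknown, and no counting interval is given. All 5 hepatocyte markers fixed for the check were listed, led by Alb at 27659 ± 2671 FPKM (SD, n = 3). Of these, Cyp2e1 was listed only through rows at its exon ends that carried the identifier of Nlrp6. The 5 red blood cell genes summed to 491, 1271 and 422 FPKM, highest in replicate 2. All rows of Hba-a1 carried the identifier of Hba-a2, and some of Hbb-bt that of Hbb-bs. They were counted in both genes, so the sum can hold the same FPKM more than once. In contrast, 4 of 5 skeletal muscle genes had no row and Mylpf was at 1.01, 0.67 and 0.26 FPKM. The libraries went against their sex label, since rows at the exons of Xist were listed in each of them and none for 4 Y-linked genes. All of the Xist rows carried the identifier of Gm27927.

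Khk and Pkm each carry a pair of mutually exclusive exons, shown here because these exons tell the forms of the enzymes apart. In Khk the upstream exon belongs to ketohexokinase-A, the form of most tissues, and the downstream exon to ketohexokinase-C, the form of liver, kidney and gut. In Pkm exon 9 belongs to the muscle form M1 and exon 10 to the form M2. The sequences are those of GENCODE M21 transcripts on GRCm38, plus strand, 5′ to 3′, and capitals mark the bases at which the exons of a pair differ when laid side by side.
Khk upstream exon, chr5:30926688-30926822: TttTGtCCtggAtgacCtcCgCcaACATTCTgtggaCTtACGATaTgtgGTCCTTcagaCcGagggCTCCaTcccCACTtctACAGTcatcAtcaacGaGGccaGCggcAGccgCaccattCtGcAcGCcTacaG
Khk downstream exon, chr5:30927022-30927156: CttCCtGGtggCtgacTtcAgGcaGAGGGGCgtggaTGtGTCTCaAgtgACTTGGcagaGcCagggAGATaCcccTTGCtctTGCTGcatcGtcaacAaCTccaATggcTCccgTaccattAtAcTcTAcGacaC
Pkm exon 9, chr9:59675029-59675195: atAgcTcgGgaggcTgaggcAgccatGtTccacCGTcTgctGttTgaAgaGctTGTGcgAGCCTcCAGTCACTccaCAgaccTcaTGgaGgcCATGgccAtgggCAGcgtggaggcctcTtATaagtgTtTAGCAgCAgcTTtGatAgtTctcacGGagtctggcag
Pkm exon 10, chr9:59675568-59675734: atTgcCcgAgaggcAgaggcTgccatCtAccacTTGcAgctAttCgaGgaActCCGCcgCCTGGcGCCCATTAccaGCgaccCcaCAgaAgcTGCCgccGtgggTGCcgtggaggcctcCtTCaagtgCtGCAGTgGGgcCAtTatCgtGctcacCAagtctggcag

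Both Khk exons have 135 bases, a whole number of codons, and share 73 of them (54.1%). Both Pkm exons have 167 bases, 2 more than a whole number of codons, and share 103 (61.7%).

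The liver form was the most abundant form of Khk in every library. The form with the downstream exon alone was at 143, 78.6 and 58.6 FPKM in replicates 1, 2 and 3. The form with the upstream exon alone was at 1.20 FPKM in replicate 1 and 0.42 FPKM in replicate 3, and had no row in replicate 2. The downstream exon alone therefore made up 92.9%, 79.9% and 93.3% of the Khk signal across this exon pair, a mean of 88.7% ± 7.61 (SD, n = 3).

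The tables also listed Khk transcripts that do not follow the exclusive pattern. Those with both exons were at 4.04, 17.2 and 0.0075 FPKM, or 2.62%, 17.5% and 0.012% of the signal, high in replicate 2 alone. Those with neither exon were at 5.74, 2.58 and 3.79 FPKM, or 3.73%, 2.63% and 6.03%. In each library these 4 forms added up to the FPKM of the main Khk first exon to within 0.01, so no further form was counted there. The annotated transcripts with these patterns are Khk-204 for the downstream exon, Khk-205 for the upstream exon, Khk-201 for both and Khk-203 for neither.

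**Figure D1:**
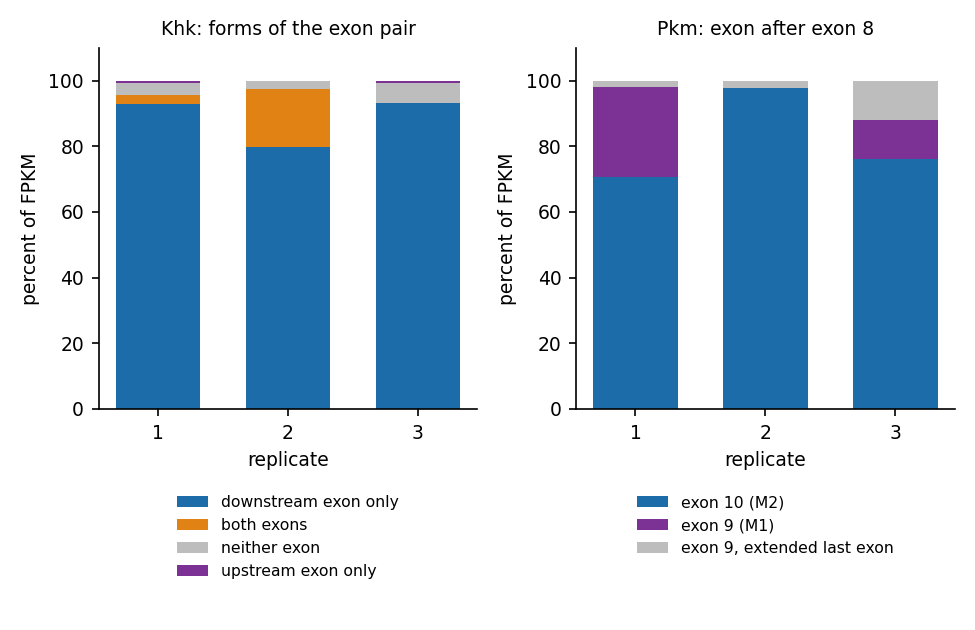
Share of each form in percent of the FPKM (y axis) in replicates 1 to 3 (x axis) for the exon pair of Khk, left, and for the exon that follows exon 8 of Pkm, right. The downstream exon alone makes up 79.9% to 93.3% of the Khk forms. Exon 10 makes up 70.8% to 97.7% of the listed Pkm forms joined to exon 8, which do not add up to the main Pkm first exon.

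At the level of the whole gene, Khk (ENSMUSG00000029162, chr5:30921431-30931248, plus strand) had 161, 102 and 66.0 FPKM, 110 ± 48.2 (SD, n = 3). Replicate 1 was the highest and replicate 3 the lowest, 2.44-fold apart. Gene-level values here are the largest of the summed first exons, the summed last exons and the largest internal event, and are lower bounds as far as the rows belong to the gene. A second first exon inside the gene, that of the retained-intron transcript Khk-202, held 7.48, 3.29 and 3.18 FPKM.

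Pkm (ENSMUSG00000032294, chr9:59656368-59679375, plus strand) had no row under its own identifier in any library. All 8 rows at its exon ends, each listed in the 3 libraries, carried the identifier of Gm49759, a single-exon annotation of unproven status on the same strand inside Pkm. Their positions are those of Pkm exons, and they are given here as Pkm. Transcripts joining exon 8 to exon 10 (M2) were at 3.09, 3.96 and 3.20 FPKM. Transcripts joining exon 8 to exon 9 (M1) were at 1.20, 0.0013 and 0.49 FPKM.

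The M2 exon was thus the higher one in all 3 libraries, with 72.1%, 99.97% and 86.6% of M1 plus M2, a mean of 86.2% ± 13.9 (SD, n = 3). Another splice to exon 9, with the exon running on as a last exon (transcript Pkm-203), was at 0.080, 0.092 and 0.51 FPKM. The main first exon of Pkm held 5.77, 6.11 and 6.26 FPKM, which is 1.48, 2.15 and 2.57 FPKM more than M1 and M2 together. No row was listed for the last exon that Pkm-201 and Pkm-202 share. In bulk tissue, fewer cells of a type and less RNA per cell cannot be told apart, which holds for Pkm, a gene of the nonparenchymal cells as well. Kupffer cell markers, all 5 listed but Adgre1 without a row in replicate 1, summed to 62.9, 106 and 96.8 FPKM, and endothelial markers, all 5 listed, to 32.1, 42.7 and 38.4 FPKM. Both sums were lowest in replicate 1, where the M2 share was lowest too. The endothelial sum followed Clec4g, which was lowest in replicate 1 at 19.3 FPKM, whereas Stab2 and Lyve1 were lowest in replicate 3. The part of these cells in the Pkm values was not tested.

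Ldha makes the A subunit of lactate dehydrogenase, the liver and muscle type, which interconverts pyruvate and lactate. Ldha (ENSMUSG00000063229, chr7:46841475-46855627, plus strand) was the most abundant of the 9 genes, with 299, 394 and 329 FPKM, 340 ± 48.8 (SD, n = 3), and ranked 114 of all 12628 genes. Its total was steady while its first exon was not. The upstream first exon (chr7:46845839-46845917) was at 32.2, 392 and 81.3 FPKM. The downstream first exon (chr7:46847082-46847388) was at 266 FPKM in replicate 1 and 247 FPKM in replicate 3, with no row in replicate 2.

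The upstream exon therefore carried 10.8%, 99.98% and 24.7% of the first-exon FPKM. Replicate 2 stood apart from the others, and its mean of 45.2% ± 48.0 (SD, n = 3) fell to 17.7% without it. Ldha-202, which begins with the upstream exon, has a coding length of 996 bases. Of the transcripts that begin with the downstream exon, Ldha-210 has 1083 and Ldha-201 has 996. The first-exon rows do not tell these transcripts apart, so a change of coding length does not follow from them. The downstream exon of 307 bases is longer than the upstream exon of 79 bases.

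The 250 bases before the RefSeq starts of both Ldha first exons are shown because the FPKM given to these exons differed (GRCm38.p6, plus strand, 5′ to 3′). Whether the use of the starts differed, or only the assignment of reads to transcripts, was not tested. Capitals mark ACGTG or GCGTG on either strand, the core letters bound by the hypoxia-inducible factors, which are known activators of glycolytic genes. Overlapping matches were counted as 1 stretch.
Ldha upstream start, chr7:46845554-46845803: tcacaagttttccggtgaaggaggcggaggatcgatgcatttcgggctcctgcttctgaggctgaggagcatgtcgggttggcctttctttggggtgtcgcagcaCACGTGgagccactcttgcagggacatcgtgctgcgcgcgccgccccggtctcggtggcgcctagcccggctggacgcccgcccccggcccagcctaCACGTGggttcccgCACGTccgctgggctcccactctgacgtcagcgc
Ldha downstream start, chr7:46846832-46847081: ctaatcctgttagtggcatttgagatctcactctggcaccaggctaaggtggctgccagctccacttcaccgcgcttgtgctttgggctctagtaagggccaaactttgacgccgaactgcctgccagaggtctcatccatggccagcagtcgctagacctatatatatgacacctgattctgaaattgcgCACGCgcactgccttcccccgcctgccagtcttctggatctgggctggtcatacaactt
The upstream window holds 3 such stretches and the downstream window 1. Of the 15 windows that RefSeq gives for the 9 genes 12 hold a match, as do 38.6% of 32851 windows of all genes, and Tpi1 is the only gene of the 9 with none. A pair of Eno1 windows and a pair of Aldoa windows overlap, so their shared bases count more than once among the 15. A match of letters does not show that a factor binds.

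The last exon of the full-length Ldha transcripts had no row. The only last exon listed, of a short transcript ending in the gene, was at 0.17, 2.21 and 0.52 FPKM. Internal exons carried the full level: the exon at chr7:46848973-46849090 was at 298, 394 and 328 FPKM. An extra exon between the first exons and the coding exons (chr7:46847389-46847496) was listed in replicate 2 alone, at 0.23 FPKM.

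Ldhb makes the B subunit, the heart type. Ldhb (ENSMUSG00000030246, chr6:142490249-142507957, minus strand) was at 1.47, 1.69 and 1.48 FPKM, 1.55 ± 0.13 (SD, n = 3), the lowest of the 8 genes listed in every library. Its 4 rows, a first exon, a last exon and inclusion of internal exons, had the same value within each library, so a single transcript form was reported.

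Aldolase A (Aldoa, ENSMUSG00000030695, chr7:126795234-126800751, minus strand) is the aldolase of muscle and red blood cells and cleaves fructose 1,6-bisphosphate. It was at 46.9, 30.3 and 15.0 FPKM, 30.7 ± 16.0 (SD, n = 3), 3.13-fold between replicates 1 and 3. Its main first exon held 96.1%, 93.4% and 96.3% of the first-exon FPKM. A second Ensembl gene that is also named Aldoa (ENSMUSG00000114515), next to it on the same strand, had no row.

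From the main first exon, Aldoa transcripts either included or skipped an extra exon of 153 bases (chr7:126797974-126798126). Transcripts with it, as in Aldoa-202, were at 40.2, 23.1 and 0.60 FPKM. Transcripts without it, as in Aldoa-201, were at 4.84, 5.20 and 13.8 FPKM, and the rows do not single out 1 annotated transcript. The extra exon was thus in 89.2%, 81.7% and 4.15% of the transcripts from this first exon, and replicate 3 stood apart. The mean of 58.3% ± 47.1 (SD, n = 3) rose to 85.4% without replicate 3. In Aldoa-202 the coding sequence begins in this exon, with 1254 coding bases against 1092 in Aldoa-201. The coding part of the exon is shown since its inclusion sets the difference, from the minus strand of GRCm38, 5′ to 3′, with the start codon in capitals.
Aldoa extra exon, coding part, chr7:126797974-126798114: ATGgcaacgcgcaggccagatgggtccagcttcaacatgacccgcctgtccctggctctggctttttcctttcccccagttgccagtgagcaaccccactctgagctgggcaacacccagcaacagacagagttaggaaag
The last exon of both transcripts had no row. The last exon that was listed, of shorter transcripts, held 1.71, 1.94 and 0.75 FPKM.

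**Figure D2:**
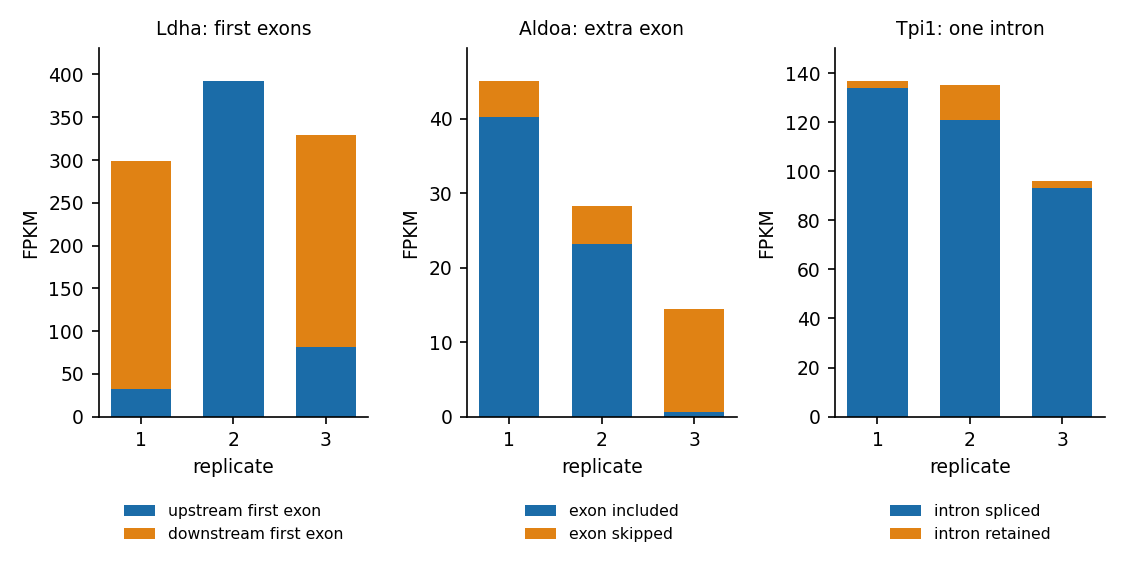
FPKM (y axis, from 0) of the forms of Ldha, Aldoa and Tpi1, stacked, in replicates 1 to 3 (x axis). The Ldha upstream first exon reaches 392 FPKM in replicate 2 against 32.2 and 81.3 FPKM in replicates 1 and 3, the Aldoa extra exon falls to 0.60 FPKM in replicate 3, and the retained Tpi1 intron is highest in replicate 2 at 14.4 FPKM.

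Triosephosphate isomerase (Tpi1, ENSMUSG00000023456, chr6:124810586-124814296, minus strand) interconverts the triose phosphates that aldolase releases. Tpi1 was at 137, 135 and 96.2 FPKM, 123 ± 23.0 (SD, n = 3). Retention of a short intron, between the exon ends at 124812705 and 124812790, was reported at 2.74, 14.4 and 2.86 FPKM, against 134, 121 and 93.3 FPKM for its removal. The retained share was 2.003%, 10.6% and 2.97%, high in replicate 2, and its mean of 5.20% ± 4.72 (SD, n = 3) fell to 2.49% without that library. Retained and spliced forms added up to the main first exon to within 0.01 FPKM. The 3′ end of Tpi1 overlaps the last exon of Spsb2 on the plus strand, at 8.62, 6.44 and 4.74 FPKM, and the sources used here do not state whether the reads keep strand.

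Phosphoglycerate kinase (Pgk1, ENSMUSG00000062070, chrX:106187100-106203699, plus strand) makes the first ATP of the pathway. It was the steadiest of the abundant members, at 108, 102 and 100.1 FPKM, 103 ± 4.17 (SD, n = 3). Its main first exon, its last exon and its listed internal exon had the same value within each library, and the other first exon, inside the gene, stayed at 0.19, 0.13 and 0.18 FPKM.

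Enolase (Eno1, ENSMUSG00000063524, chr4:150236721-150248879, plus strand) makes phosphoenolpyruvate, the substrate of pyruvate kinase. Eno1 was at 189, 146 and 84.6 FPKM, 140 ± 52.2 (SD, n = 3), with replicate 1 again the highest and replicate 3 the lowest. Of its 6 listed first exons, the main one (chr4:150236952-150237340) held 97.2%, 97.5% and 93.8% of the FPKM. The last exon gave nearly the same level, at 186, 145 and 83.8 FPKM.

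Gapdh, glyceraldehyde 3-phosphate dehydrogenase and a common reference gene, was nearly absent from the tables. Gapdh (ENSMUSG00000057666, chr6:125161715-125166467, minus strand) had no row in replicates 1 and 2 and 2 rows in replicate 3, a first exon and the inclusion of a 30-base exon, both at 6.53 FPKM. That first exon (chr6:125166414-125166514) did not end at an annotated splice site. None of its 6 annotated first exons or 4 annotated last exons was listed. Gapdh also differs from the others in the number of its copies: 37 other genes matched its coding sequence at 90% identity or more over at least 80% of its length, 35 of them annotated as pseudogenes, against at most 3 for any other member. Of these copies 1 was listed, Gm3839, at 2.36 and 1.33 FPKM in replicates 1 and 2 with no row in replicate 3. Whether reads were divided among the copies was not tested.

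**Figure D3:**
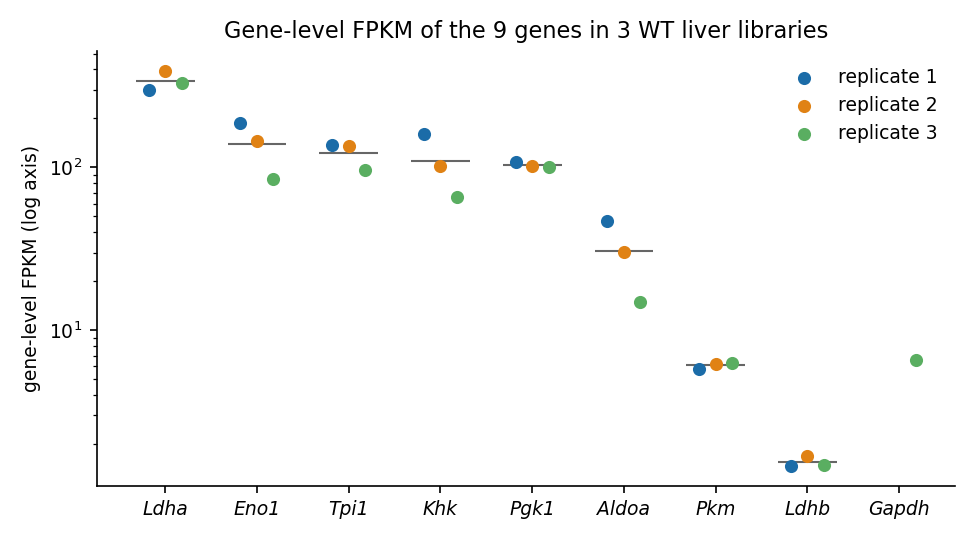
Gene-level FPKM on a log axis (y) of the 9 genes (x), with a point for each library and a line at the mean of the 8 genes listed in all 3 libraries. Ldha is highest at 340 FPKM and Ldhb lowest at 1.55 FPKM, the points of Khk, Eno1 and Aldoa spread most, and Gapdh has a single point.

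The order of the mean levels was Ldha, Eno1, Tpi1, Khk, Pgk1, Aldoa, Pkm and Ldhb. The ranges of Eno1, Tpi1, Khk and Pgk1 overlapped, and neighbours among them changed order between libraries, although Eno1 was above Khk in all 3. Ldha lay above them, and Aldoa, Pkm and Ldhb below, in every library. The spread differed among the members. The SD of log2(FPKM + 1) was 0.80 for Aldoa, 0.64 for Khk, 0.59 for Eno1 and 0.29 for Tpi1, above the median of 0.21 over the 9306 genes that averaged 1 FPKM or more. It was 0.20 for Ldha, 0.071 for Ldhb, 0.057 for Pgk1 and 0.057 for Pkm, below that median. Of those genes 96.7% had a smaller SD than Aldoa and 5.54% a smaller SD than Pgk1. In Aldoa, Khk and Eno1, and with a smaller spread in Tpi1 and Pgk1, replicate 1 was the highest and replicate 3 the lowest. Ldha, Ldhb and Pkm were lowest in replicate 1. The cholangiocyte markers, all 5 listed but only 2 of them averaging 1 FPKM or more, summed to 79.2, 33.9 and 37.7 FPKM. Spp1 gave 75.5, 31.5 and 35.5 FPKM of these sums. Krt19 and Krt7 were under 1 FPKM in every library, and of the 5 markers only Krt7 was highest in replicate 2. The stellate cell markers, 4 of 5 listed and Lrat without a row, summed to 74.3, 86.8 and 84.0 FPKM. Replicate 1 was the highest for the cholangiocyte sum and the lowest for the stellate sum. The stellate sum followed Dcn, at 61.4, 75.5 and 76.9 FPKM, whereas Reln and Col3a1 were highest in replicate 1 and Des was lowest in replicate 3. The part of these cells in the member values was not tested.

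The last exons of the main transcripts were missing in several members. Of the 31 first and last exon rows at these genes 30 had exactly the position of an annotated exon, the exception being Gapdh. In 5 of the 9 genes (Khk, Eno1, Pgk1, Tpi1 and Ldhb) the last exons summed to at least 50% of the first exons, as they did in 73.6% of the 8474 genes with a first-exon sum of at least 1 FPKM. In Aldoa, Ldha and Pkm they summed to 4.78%, 0.28% and 3.70%, and in Gapdh no last exon was listed.

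Pairs of related enzymes were set side by side within each library. Aldoa exceeded Aldoc, the brain aldolase, by 2.70 ± 0.89 on the log2(FPKM + 1) scale (SD, n = 3), with Aldoc at 4.78, 2.05 and 3.98 FPKM. Liver pyruvate kinase (Pklr) was at 86.0, 46.3 and 61.2 FPKM and exceeded Pkm 14.8-, 7.45- and 9.65-fold.

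Eno1 exceeded the muscle enolase Eno3 by 5.37 ± 0.54 on the same scale, with Eno3 at 2.14, 2.57 and 2.01 FPKM. The phosphofructokinases were closest, with liver-type Pfkl above muscle-type Pfkm by 0.90 ± 0.22. Khk exceeded hexokinase 1 (Hk1), which was at 1.23, 1.27 and 0.68 FPKM, by 5.67 ± 0.46. The gene given first was above its partner in 3 of 3 libraries for all 6 pairs. The pairs were chosen with earlier results of these data known, so this count is a description only. A total of 3 differences changed sign when a gene was represented by its last exons, those of Ldha over Ldhb, Aldoa over Aldoc and Pfkl over Pfkm, to -0.51, -0.88 and -2.19; Ldha and Aldoa lack rows for their main last exons.

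**Figure D4:**
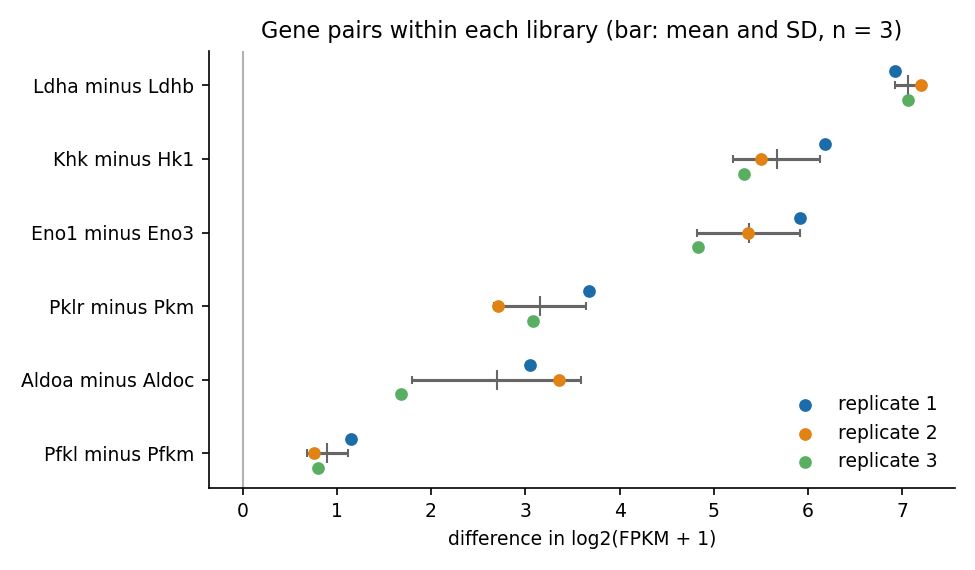
Difference in log2(FPKM + 1) between the first and the second gene of 6 pairs (x axis, first minus second), with a point for each library, a tick at the mean and a bar of 1 SD to each side. All points lie above 0, from 0.76 for Pfkl and Pfkm to 7.20 for Ldha and Ldhb.

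The rest of the pathway was described by lists of named genes. Of 56 genes in 7 lists 49 were listed and 42 averaged 1 FPKM or more, 85.7% of those listed, against 73.7% of all genes in the tables. The share of all genes used rows by identifier alone, by which 41 of the list genes reached 1 FPKM. Hif1a was listed only through rows that carried the identifier of Snapc1. Fructose entry and use had all 7 genes listed, of which 6 reached 1 FPKM, and a median log2(FPKM + 1) of 2.83, against 2.13 for all genes in the tables. Its highest gene was Sord, which makes fructose from sorbitol, at 405 ± 34.7 FPKM (SD, n = 3), followed by the triokinase Tkfc, which phosphorylates glyceraldehyde, at 63.6 ± 13.5 FPKM. The fructose carrier Slc2a5 was its lowest, at 1.06, 0.87 and 0.98 FPKM.

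Of the 8 genes of glucose entry and phosphorylation 7 were listed and 5 reached 1 FPKM, with a median of 1.03. The carrier Slc2a2 was highest at 123 ± 22.0 FPKM, and hexokinase 2 (Hk2) was lowest, with a row in replicate 2 alone at 0.35 FPKM. Of 13 other glycolytic genes 8 were listed and 7 reached 1 FPKM, with a median of 2.85, Pklr highest at 64.5 ± 20.0 FPKM and the platelet phosphofructokinase Pfkp lowest at 0.40 ± 0.11 FPKM. Pgam2, Eno1b, Eno2, Gapdhs and Pgk2 had no row. Bpgm, which makes 2,3-bisphosphoglycerate in red blood cells, was at 4.02, 6.10 and 3.92 FPKM, highest in replicate 2. The 4 globin genes among the red blood cell markers, which share rows, were also highest there, unlike Alas2, at 12.3, 10.7 and 9.99 FPKM.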

How the data were processed

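The 3 WT liver libraries were deposited as 1 table each of transcript-structure events with FPKM values that the authors computed. Per the submitters' processing notes, the tools were HISAT2 2.0.1, cutadapt 1.9.1, DESeq2 and HTSeq 0.6.1 and the build mm9, with no roles stated. No source used here names the program behind the event tables. Positions fitted GRCm38: 82.0%, 82.2% and 82.7% of first exons were exactly annotated ones in GENCODE M21, and at most 0.0056% were after a shift of 1000 bases.

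Identical rows (1519, 1440 and 1485) were counted once. Events were assigned by gene identifier. Rows under another identifier at a listed gene's own exon ends were added, a choice made after seeing the data. Such rows also stayed with the gene of the other identifier. The gene-level definition, the 9 genes, the pathway and marker lists and the pairs were chosen with earlier results of these data known. All 9 genes were to be named, with the pair genes and the highest and lowest gene of each list; Tkfc, Bpgm, Ptbp1 and Sf3b1 were added after their values were seen. Some genes of the pairs and lists are not reported here. SDs are over 3 libraries, with a pseudocount of 1 on the log2 scale. Genes with a library at 0 got no mean. Copies were sought with minimap2 2.31. Functions were tested on simulated tables. Alternatives were other pseudocounts, event types, low-value filters and leaving out each library.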

Additional observations from a re-analysis of the deposited data

How the results depend on the processing

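The results depended most on which events represent a gene. With last exons only, the log2 difference became -0.51 for Ldha and Ldhb, -0.88 for Aldoa and Aldoc, -2.19 for Pfkl and Pfkm, and 5.71 for Pklr and Pkm; Ldha, Aldoa and Pkm have no row for their main last exons, and for the other genes the cause was not tested. With a pseudocount of 0.1 the difference was 7.69 for Ldha and Ldhb and 6.51 for Khk and Hk1, where the lower gene is near 1 FPKM. Leaving out 1 library gave 42.9% to 85.4% for the Aldoa extra exon, 17.7% to 62.3% for the Ldha upstream first exon, 79.4% to 93.3% for Pkm M2 and 86.4% to 93.1% for the Khk downstream exon. Leaving out events under 0.1 FPKM, and first exons only, moved none of the pair differences or shares tried by more than their SD. First exons alone gave no value for Pfkl and Pfkm or for Khk and Hk1, and rows by identifier alone gave none for Pklr and Pkm. No paired analysis was possible because the libraries form 1 group. Depth is unknown, so it is not known how far low values such as the M1 exon of Pkm are limited by it.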

Other observations

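Genes known to regulate the choice between the exclusive exons of Pkm or Khk were all listed. Of these 8 of 8 reached 1 FPKM, against 73.7% of all genes in the tables. Their median log2(FPKM + 1) was 4.45, against 2.13 for all genes in the tables. Hnrnpa2b1, a repressor of Pkm exon 9, was highest at 113, 107 and 91.3 FPKM. Ptbp1, which acts on the same exon, was at 25.1, 18.5 and 23.8 FPKM, and its neuronal relative Ptbp2 was lowest at 6.56, 3.74 and 3.05 FPKM. Sf3b1, a splicing factor reported to favour the ketohexokinase-C exon in heart, was at 16.1, 20.2 and 22.7 FPKM.

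Of 11 pyruvate and lactate genes 10 were listed and 9 reached 1 FPKM, with a median of 4.15. The mitochondrial pyruvate carrier subunit Mpc2 was highest at 175 ± 16.7 FPKM (SD, n = 3), and the lactate exporter Slc16a3 was lowest, with a row in replicate 2 alone at 0.16 FPKM. Of 5 genes that set fructose 2,6-bisphosphate, the activator of phosphofructokinase, 3 reached 1 FPKM, with a median of 1.22; the liver form Pfkfb1 was highest at 6.08 ± 0.71 FPKM, and Pfkfb4 was lowest, with a row in replicate 2 alone at 0.26 FPKM. Of 4 transcription factors of sugar metabolism all reached 1 FPKM, with a median of 4.33, Hif1a only through rows that carried the identifier of Snapc1. The carbohydrate-responsive factor Mlxipl was highest, at 114, 113 and 54.3 FPKM, and Myc was lowest at 1.43 ± 0.29 FPKM.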
